A study of Mus musculus with 72 samples.

Results

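The 9 genes described here encode liver enzymes that break down amino acids: Tat, Hpd, Hgd and Fah of tyrosine catabolism, Tdo2 of tryptophan catabolism, Hal of histidine catabolism, Prodh of proline catabolism, and Sds and Sdsl of serine catabolism. They were chosen by gene symbol from the table of sense-strand gene counts, in which all 9 were found among 27846 genes. Poly(A) RNA was sequenced from whole liver of wild-type C57bl6 mice aged 8 to 16 weeks. Every group, the controls too, received a diet in which fat supplied 42% of the calories, and housing was under 12 h of light and 12 h of dark. Mice of each sex were either controls or exposed to circadian misalignment, a schedule that the labels do not describe, and livers were taken at stated clock times of 0, 4, 8, 12, 16 and 20 h. This gave 24 groups of 3 libraries, so that each combination of sex and treatment had 18. The labels do not say that the 3 libraries of a group came from separate mice, so the p-values measure the spread between these libraries. Nor do they relate the clock time of misaligned mice to their light cycle.

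Amino acids in excess of need are degraded mainly in hepatocytes, where the nitrogen is passed to the urea cycle and the carbon skeletons to gluconeogenesis, ketone bodies or the citric acid cycle. Several of the first enzymes of these pathways are textbook targets of glucocorticoids, glucagon and feeding state, and Tat and Tdo2 in particular were among the first liver genes known to be hormonally induced. Tyrosine is degraded in sequence by TAT, HPD, HGD and FAH to fumarate and acetoacetate, and loss of HGD or FAH in humans causes alkaptonuria or hereditary tyrosinemia.

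Libraries carried 11551524 to 12529963 gene counts (median 12005221), and 15066 genes, all 9 members among them, passed the filter on low counts. Values are given as CPM, counts scaled to library size with TMM factors of 0.836 to 1.17. The hepatocyte markers, 8 of 8 of which were in the table, summed to between 74420 and 141100 CPM in every library, while the 5 pancreas markers in the table summed to at most 0.494 CPM. In control livers the hepatocyte marker sum had a median of 113400 CPM in females and 86340 CPM in males. The 7 Kupffer cell markers summed to 404 to 2154 CPM in control females and 238 to 703 CPM in control males. Of these 7 markers, 5 were called lower in males (edgeR, adjusted p under 0.05), where 16% of all genes tested were. The 7 stellate cell markers summed to 527 to 866 CPM in control females and 490 to 1628 CPM in control males. In whole tissue, fewer cells of a type and less RNA per cell cannot be told apart. The part of these marker differences in the results below was not tested.

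The members spanned more than 2 orders of magnitude in level per length, taken as CPM per kilobase of the union of annotated exons and averaged over all 72 libraries (± SD, n = 72). Hpd (ENSMUSG00000029445, chromosome 5, 123171807 to 123182727, minus strand), the dioxygenase that makes homogentisate, stood highest at 993 ± 379. It was followed by Tat (ENSMUSG00000001670, chromosome 8, 109990437 to 109999803, plus strand), the aminotransferase that opens the pathway, at 624 ± 324. Fah (ENSMUSG00000030630, chromosome 7, 84585159 to 84606722, minus strand), the hydrolase of the last step, stood at 320 ± 51.7. The tyrosine enzymes thus led the list.

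Hgd (ENSMUSG00000022821, chromosome 16, 37580153 to 37632020, plus strand), the dioxygenase that opens the ring of homogentisate, had 283 ± 49.2 CPM per kilobase. Tdo2 (ENSMUSG00000028011, chromosome 3, 81957090 to 81976202, minus strand), the dioxygenase that commits tryptophan to the kynurenine pathway, had 240 ± 64.5. Sds (ENSMUSG00000029597, chromosome 5, 120476526 to 120483932, plus strand), which turns serine into pyruvate and ammonia, had 59.2 ± 26.1. Thus Sds stood far below the tyrosine enzymes.

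Hal (ENSMUSG00000020017, chromosome 10, 93488768 to 93519304, plus strand), the lyase that turns histidine into urocanate, had 42.3 ± 18.9 CPM per kilobase. Prodh (ENSMUSG00000003526, chromosome 16, 18060357 to 18090203, minus strand), the mitochondrial proline dehydrogenase, had 23.8 ± 7.89. Sdsl (ENSMUSG00000029596, chromosome 5, 120458186 to 120472810, minus strand), a serine dehydratase-like gene, was lowest at 3.20 ± 1.06. Sds and Sdsl lie next to each other with 3715 bases between them and point away from each other, yet Sds was the far more abundant of the pair. With 25 to 135 reads per library, Sdsl was also the least precisely counted member. In the order of levels, neighbours lay within the larger of their 2 SDs except at 2 steps, from Tdo2 down to Sds and from Prodh down to Sdsl. Against the smaller SD, the steps from Hpd to Tat, from Tat to Fah and from Hal to Prodh exceeded it too. All 9 positions are from GENCODE vM21 on GRCm38.

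**Figure D1:**
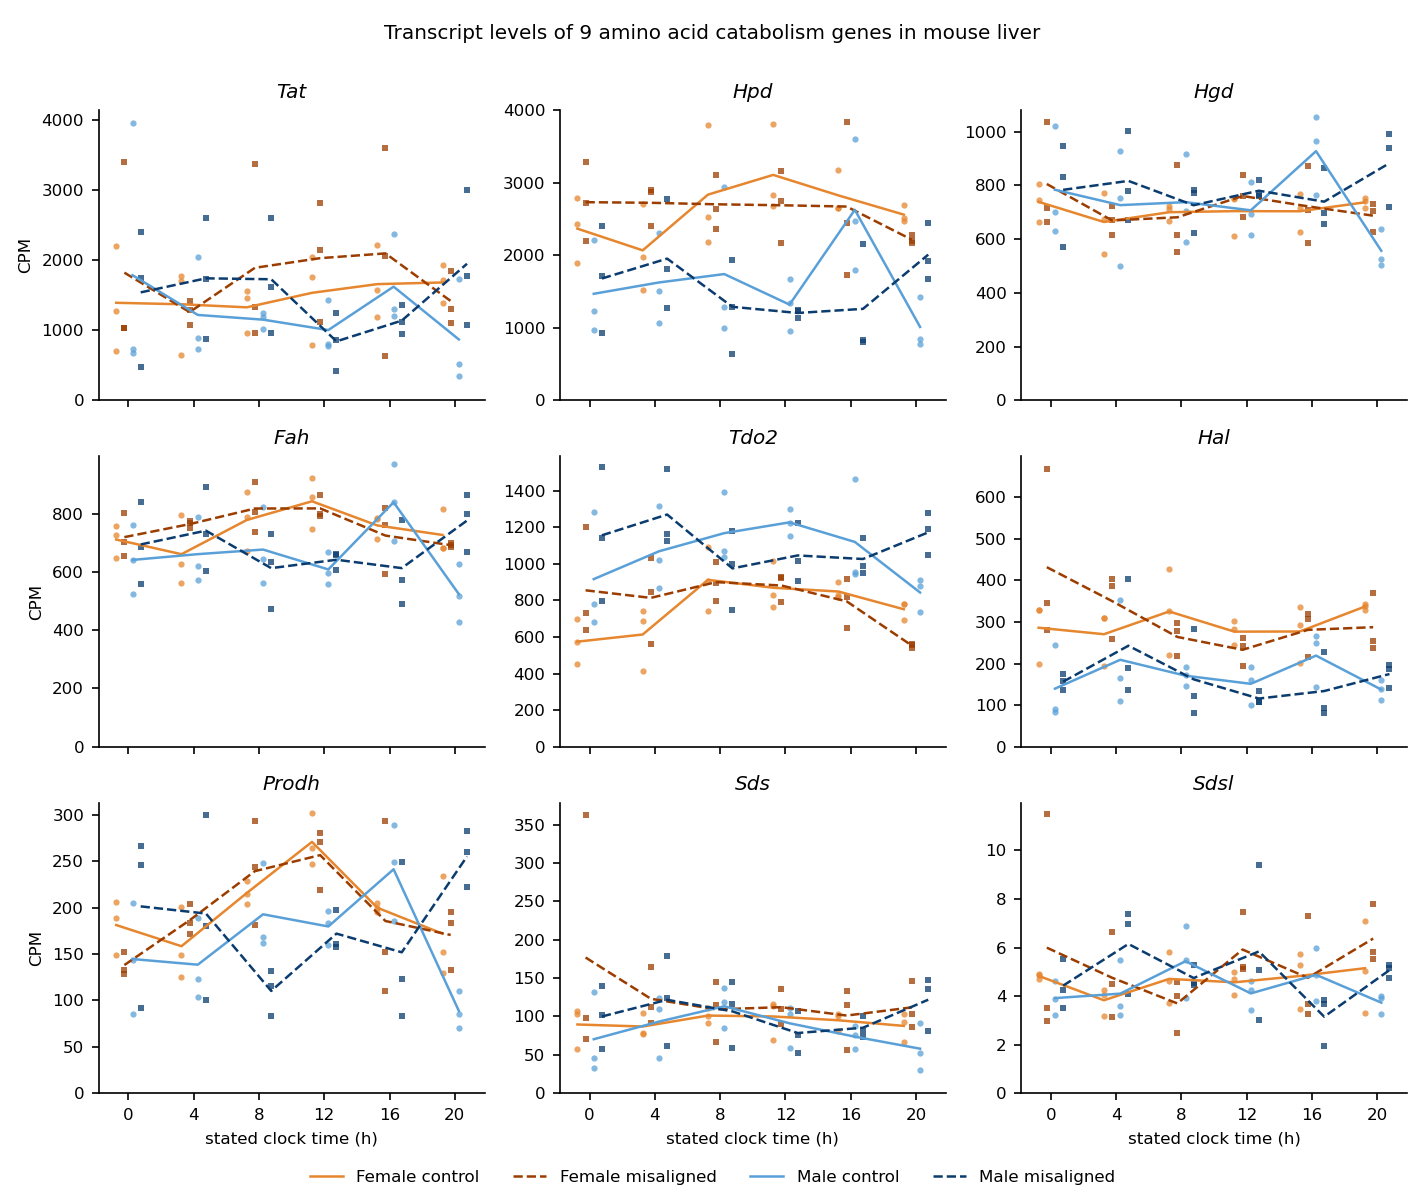
Level of each member in CPM (vertical axis, from 0) against the stated clock time in h (horizontal axis). Points are single libraries, lines join the means of 3, circles and solid lines are controls, squares and dashed lines are misaligned mice, orange and brown are females, and light and dark blue are males. Hpd and Hal are lower and Tdo2 is higher in males at 6 of 6 clock times. The mean of control males is lowest at 20 h for 9 of 9 members, a share not measured over all genes.

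The first comparison asked whether the enzymes differ between male and female livers. In controls, Hpd, Hal and Fah were lower in males and Tdo2 was higher, which is 4 of 9 members called (edgeR, adjusted p under 0.05) where 32.9% of all genes tested were called. The members' count is therefore near the background: 3 of 9 were lower where 16% of genes were, and 1 of 9 was higher where 17% of genes were. The median difference over the 9 members was -0.20 log2, against -0.0065 over all genes.

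Hal showed the largest sex difference of the 9. In 18 control females it ran from 194 to 429 CPM with a median of 309, and in 18 control males from 84.1 to 352 CPM with a median of 161. Most males lay below most females, but the ranges overlapped. The difference was -0.81 ± 0.16 log2 (± SE, edgeR adjusted p = 9.48e-05), and the mean of males was the lower one at 6 of 6 clock times.

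Hpd ran from 1528 to 3808 CPM with a median of 2652 in control females and from 776 to 3612 CPM with a median of 1380 in control males. The male range was wider and reached almost as high as the female one. The difference was -0.74 ± 0.15 log2 (edgeR adjusted p = 1.26e-04), again with the lower mean in males at 6 of 6 clock times.

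Tdo2 ran the other way. Control females had 415 to 1090 CPM with a median of 772, and control males had 685 to 1463 CPM with a median of 1029. The difference was 0.48 ± 0.09 log2 (edgeR adjusted p = 5.29e-05), with the higher mean in males at 6 of 6 clock times and values of 3 against 3 that did not overlap at 3 of them.

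Fah differed least among the called members. Its levels were 562 to 921 CPM in control females, with a median of 753, and 428 to 970 CPM in control males, with a median of 634. The male mean was lower at 4 of 6 clock times, and the difference was -0.19 ± 0.07 log2 (edgeR adjusted p = 0.0288). This call did not hold when the 20 h livers were left out (adjusted p = 0.199), and it was lost when any of 8 single libraries was left out, with adjusted p up to 0.0642. It was also lost without the libraries of replicate number 1 (0.207) or 2 (0.0798). The single libraries were the control libraries of females at 4 h (replicate 1), 8 h (replicate 3) and 20 h (replicate 3) and of males at 0 h (replicate 1), 4 h (replicate 1), 8 h (replicate 3), 16 h (replicate 1) and 20 h (replicate 2).

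Prodh was -0.33 ± 0.14 log2 in control males relative to females and missed the threshold (edgeR adjusted p = 0.0581). It was called by DESeq2 (adjusted p = 0.0436), with the compared libraries alone (0.0182), at a mean of at least 5 CPM (0.0382) and with total counts in place of TMM (0.0356). Hgd (0.05 ± 0.08), Tat (-0.27 ± 0.26), Sds (-0.20 ± 0.19) and Sdsl (-0.10 ± 0.15) were not called. Within the tyrosine pathway the difference thus ran from -0.74 log2 for Hpd to 0.05 log2 for Hgd, the enzyme of the next step. The standard error for Tat was the largest of the 9 and exceeded the difference called for Fah.

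The same 3 larger differences were measured again in the other 36 livers. In misaligned mice 3 of 9 members were called, against 37.7% of all genes: 1 was higher (19.9%) and 2 were lower (17.8%). The male minus female difference was 0.48 ± 0.09 log2 for Tdo2 (edgeR adjusted p = 4.18e-05), -0.77 ± 0.15 for Hpd (5.01e-05) and -0.92 ± 0.16 for Hal (1.03e-05). Fah was at -0.16 ± 0.07 (0.0721, but 0.00265 with total counts, 0.0327 at a mean of at least 5 CPM and 0.0226 without the 20 h livers) and Prodh at -0.13 ± 0.14 (0.464). The sex difference of Hal, Hpd and Tdo2 thus held its sign and size in both treatments.

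**Figure D2:**
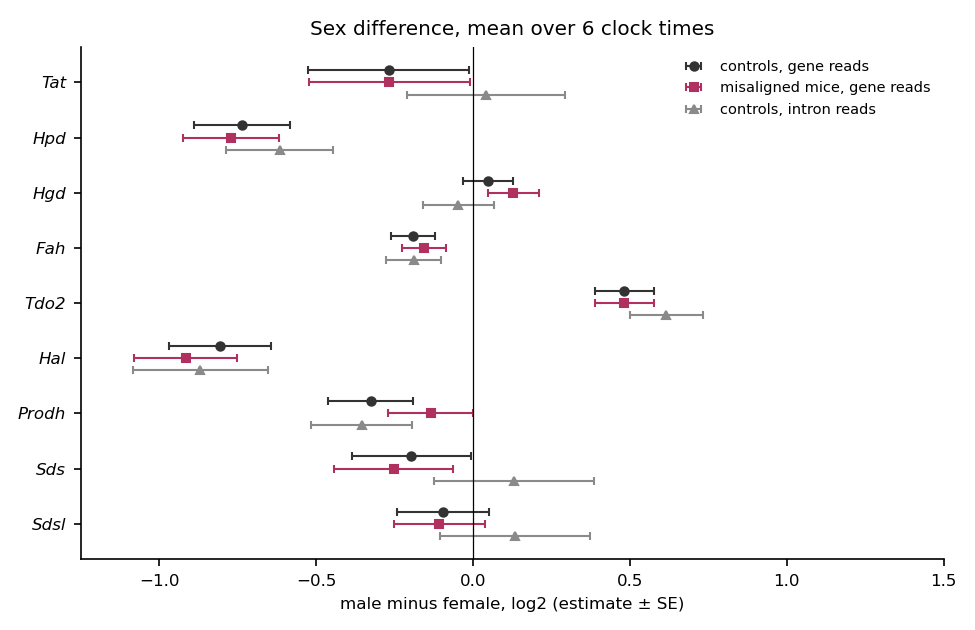
Male minus female difference in log2 (horizontal axis, estimate ± SE, mean over 6 clock times) for each member, from gene reads in controls (circles), gene reads in misaligned mice (squares) and intron reads in controls (triangles). Hal and Hpd lie left of 0 and Tdo2 right of 0 in all 3, whereas Hgd, Tat, Sds and Sdsl were called in none of the 3.

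Reads within introns, which come largely from transcripts not yet spliced, gave a separate count for each member, from a median of 40 reads per library for Sdsl to 1405 for Hpd. Of the 9 members 3 were called for the sex difference in controls, against 16% of the 9858 genes with enough intron reads: 1 was higher (7.67% of genes) and 2 were lower (8.33%). Tdo2 was higher in males by 0.62 ± 0.12 log2 (edgeR adjusted p = 5.54e-05). Hpd fell by 0.62 ± 0.17 (0.00752) and Hal fell by 0.87 ± 0.21 (0.00248). The intron and gene reads come from the same libraries, so this is a second readout and not a second set of mice. The intron call for Hpd was lost without the libraries of replicate number 1 (adjusted p = 0.166) or 2 (0.0507), and that for Hal without number 1 (0.102).

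RefSeq promoter windows of 300 bases on GRCm38.p6 were found for 7 of the 9 members (not for Sds and Sdsl). The bases before the start of Hpd and Hal are shown because these 2 genes had the largest sex differences and because promoters of liver genes that differ between the sexes are often searched for STAT sites, through which growth hormone acts. Capitals mark matches to 6 letter patterns, each searched on both strands: the clock-related E-box CACGTG, the D-boxes TTATGTAA and TTACGTAA, the nuclear receptor motif AGGTCA, the STAT pattern TTCNNNGAA and the TATA box TATAAN. The Hpd stretch is chromosome 5, 123182728 to 123182973, minus strand, and the Hal stretch is chromosome 10, 93488518 to 93488767, plus strand, both 5′ to 3′ and free of annotated exons.
Hpd: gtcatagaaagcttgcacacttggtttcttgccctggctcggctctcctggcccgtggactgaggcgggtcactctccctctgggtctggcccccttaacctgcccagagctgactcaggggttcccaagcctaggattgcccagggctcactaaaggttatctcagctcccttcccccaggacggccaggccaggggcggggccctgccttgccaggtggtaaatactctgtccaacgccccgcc
Hal: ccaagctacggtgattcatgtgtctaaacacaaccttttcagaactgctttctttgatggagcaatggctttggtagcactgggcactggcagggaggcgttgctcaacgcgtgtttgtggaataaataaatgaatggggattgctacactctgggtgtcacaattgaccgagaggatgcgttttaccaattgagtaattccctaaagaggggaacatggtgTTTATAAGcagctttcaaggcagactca

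Hal has a TATA box match on each strand, overlapping and beginning 28 and 26 bases before its start, while the Hpd window held no match to any of the patterns. A TATA box match was present in 24.8% of 32841 windows of the same length. It was also present in 4 of the 7 searched here, those of Tat, Tdo2, Hgd and Hal. Counted from the start, the match began at -229 in Tdo2, at -139 in Hgd and at 39, after the start, in Tat. Among these 4 windows, a match close before the start was thus found in that of Hal alone. In the 7 windows searched, neither the E-box (7.15% of all windows) nor a D-box (0.938% and 0.119%) was found, and the STAT pattern (8.30%) occurred in that of Prodh alone. The motif AGGTCA (16.3%) occurred in the windows of Tdo2 and Hgd. These are matches of letters in a short window and say nothing of binding.

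The second comparison asked whether misalignment shifted the mean level of the enzymes over the day. None of the 9 members was called in females, where 0.00664% of genes (1 gene) were called, or in males, where 0% were. At an unadjusted p under 0.05, 1006 genes passed in females and 932 in males. The members' median change was 0.03 log2 in females, against -0.0010 over all genes, and 0.10 in males, against 0.0064.

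Sds had the largest estimate in each sex. It ran from 57.8 to 117 CPM with a median of 101 in control females and from 55.6 to 362 CPM with a median of 111 in misaligned females. In males it ran from 29.9 to 136 CPM with a median of 85.7 in controls and from 51.7 to 178 CPM with a median of 102 in misaligned livers. The change was 0.37 ± 0.19 log2 in females (edgeR unadjusted p = 0.0575, adjusted p = 0.749). In males it was 0.31 ± 0.19 log2 (edgeR unadjusted p = 0.106, adjusted p = 0.836). Neither change was called.

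Tat was next, at 0.21 ± 0.26 log2 in females and 0.21 ± 0.26 in males. The estimates for Hpd (0.01 ± 0.15 and -0.03 ± 0.15) and Fah (0.02 ± 0.07 and 0.05 ± 0.07) lay close to 0. No member was called for a sex difference of the misalignment effect (0% of genes called), for which the estimates lay between -0.11 for Hal and 0.19 for Prodh.

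The spread among the 3 libraries of a group limits these estimates, and it differed among members. For Tat the SD within a group was 0.62 log2 in control females, 0.83 in misaligned females, 0.89 in control males and 0.81 in misaligned males, where the median over all genes was 0.26 to 0.31. The 3 control males at 0 h had 726, 668 and 3959 CPM of Tat, so 1 liver stood more than 5-fold above the others. Fah varied least in misaligned females (SD 0.14).

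Among the controls, every member but Sdsl varied more in males than in females. The SDs of Hpd, Hal and Sds were 0.58, 0.58 and 0.68 log2 in males and 0.30, 0.35 and 0.33 in females. The median SD over all genes was 0.29 log2 in control males and 0.28 in control females. In misaligned mice Sds went the other way, with 0.58 in males and 0.68 in females. These differences in spread were not tested. In misaligned females at 0 h, Sds was at 71.0, 97.3 and 362 CPM. Hal was at 282, 345 and 669 CPM in the same livers. The third replicate was thus high for both, and it was also the highest of the 3 for Tat and Sdsl.

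The third comparison asked how the levels ran over the day. In control females Tdo2 alone was called rhythmic by a 24 h cosine fit, 1 of 9 members where 12% of genes were called. Its 3 livers per clock time had 574, 450 and 700 CPM at 0 h, 685, 741 and 415 at 4 h, 743, 906 and 1090 at 8 h, 831, 1013 and 764 at 12 h, 899, 817 and 830 at 16 h, and 781, 782 and 692 at 20 h. The values at 0 h were all below those at 8 h. The fitted amplitude, from mean to peak, was 0.33 ± 0.10 log2 with a peak at 12.6 ± 1.1 h (edgeR adjusted p = 0.0390).

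This rhythm did not survive each change of method. A test of equal means over the clock times gave adjusted p = 0.174, and a fit without the filter gave 0.0653. Leaving out 1 of 6 control female libraries also ended the call, namely those at 0 h (replicates 1 and 2), 4 h (replicate 3), 8 h (replicates 2 and 3) and 12 h (replicate 2), with adjusted p up to 0.129. Without the libraries of replicate number 1 the adjusted p was 0.156, and without number 2 it was 0.361.

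No member was called rhythmic in misaligned females (7.69% of genes), control males (10.8%) or misaligned males (0.00664%). Prodh had the largest amplitude in misaligned females, 0.40 ± 0.14 log2 with a peak at 10.6 h (adjusted p = 0.160). In control males its amplitude was 0.42 ± 0.15 with a peak at 11.6 h (0.124), and in control females it was 0.30 ± 0.14 with a peak at 12.0 h (0.301). In misaligned males the amplitude was 0.41 ± 0.15 and the peak fell at 21.5 h (0.548). The fitted peak of Prodh thus lay between 10.6 and 12.0 h in the 3 other groups. Fitted on the compared libraries alone, Prodh was called in control females (0.0473) and misaligned females (0.0402), and by equal means over clock times in control males (0.0344).

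The change of rhythm with misalignment was tested directly. In males Prodh was the 1 member of 9 called, against 9.23% of genes. In control males its 3 livers had 84.8, 144 and 205 CPM at 0 h, 103, 189 and 123 at 4 h, 162, 248 and 169 at 8 h, 196, 160 and 183 at 12 h, 186, 289 and 249 at 16 h, and 85.5, 69.9 and 111 at 20 h. In misaligned males it had 267, 246 and 92.3 CPM at 0 h, 300, 100 and 180 at 4 h, 116, 132 and 83.3 at 8 h, 198, 161 and 158 at 12 h, 123, 83.1 and 250 at 16 h, and 223, 260 and 283 at 20 h. Control and misaligned values did not overlap at 8 h, where misaligned livers were lower, and at 20 h, where they were higher.

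The size of the change vector was 0.79 ± 0.21 log2 (edgeR adjusted p = 0.0236). In a fit of the compared libraries alone it was not called (adjusted p = 0.122), nor without the filter (0.0560), without the control male library at 20 h, replicate 2 (0.0552), or without all 20 h livers (0.264). Leaving out the libraries of replicate number 1 (0.299) or 2 (0.220) also ended the call. In females no member was called for a change of rhythm, against 0.192% of genes. The sex difference of the change called 0 of 9 (1.73% of genes), with Prodh at 0.919 ± 0.290 log2 and an adjusted p of 0.168, so a difference between the sexes was not shown. The control rhythms themselves were not called different between the sexes for any member (0% of genes).

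Without assuming a cosine, the misalignment effect was unequal over the clock times for 2 of 9 members in males, against 9.26% of genes. These were Prodh (edgeR adjusted p = 0.00478) and Fah (0.0470), while Hpd was at 0.0733. In females 0 of 9 were called (0.0332%). Neither male call held without the 20 h livers (adjusted p of 0.246 for Prodh and 0.445 for Fah) or in a fit of the compared libraries alone (0.0676 and 0.205). Without the libraries of replicate number 1 or 2, the adjusted p was 0.104 or 0.169 for Prodh and 0.153 or 0.545 for Fah. The call for Fah was also lost without the filter (0.0747), with total counts (0.0914), with the replicate number as a block (0.0510) and in 40 of 72 fits without a single library, with adjusted p up to 0.138. Prodh was called in 72 of 72 of those fits.

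**Figure D3:**
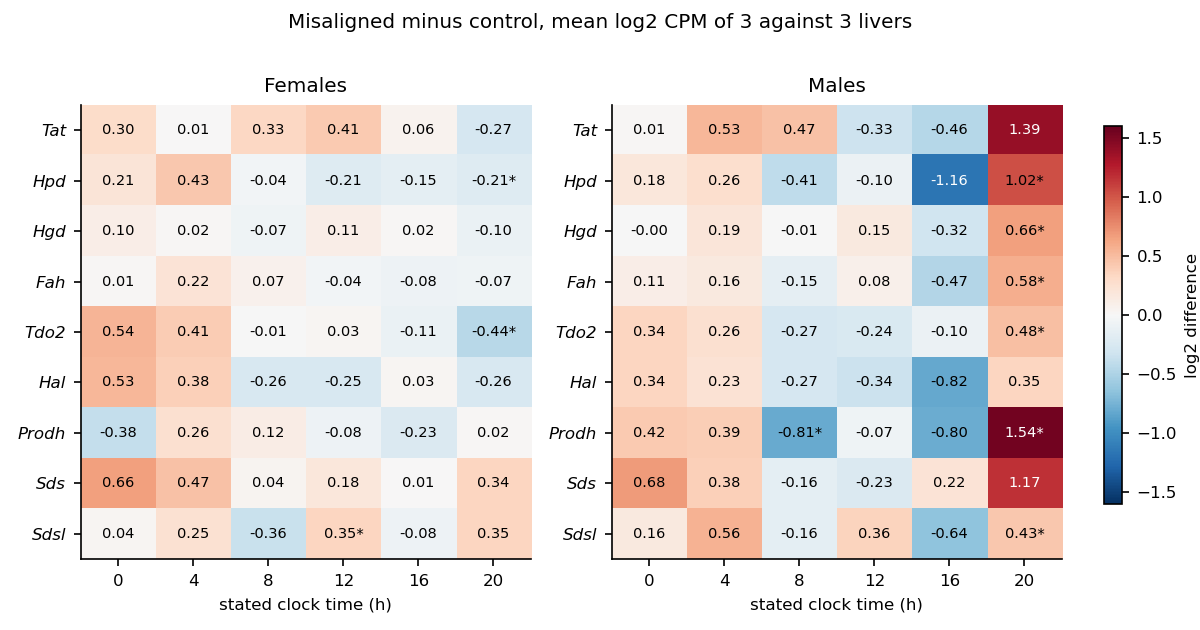
Misaligned minus control difference of mean log2 CPM (colour and printed value) for each member (rows) at each stated clock time in h (columns), females left and males right, 3 libraries against 3. An asterisk marks values that did not overlap between the 3 and 3 libraries. The male column at 20 h holds 6 of them, where 33.2% of all genes did not overlap. In that column 9 of 9 differences are above 0, a share not measured over all genes.

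At 20 h the differences in males ran the same way for all members. In control males 9 of 9 members had their lowest mean CPM at 20 h, although Hal was almost as low at 0 h (138 against 140 CPM). Misaligned males at 20 h had the higher mean for 9 of 9 members, and the values did not overlap for 6 of them: Tdo2, Hpd, Hgd, Fah, Sdsl and Prodh. At this clock time 33.2% of all genes did not overlap between the 2 groups, a larger share than at any other clock time in either sex. How many of all genes were lowest in control males at 20 h, or higher in misaligned males then, was not measured. The counts of 9 of 9 are thus not shown to be particular to these enzymes.

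Prodh had 85.5, 69.9 and 111 CPM in control and 223, 260 and 283 CPM in misaligned males at 20 h. The difference of the means was 1.54 log2, the largest of any member at any clock time in either sex. Hpd had 843, 776 and 1420 CPM in controls and 1674, 1916 and 2441 CPM in misaligned males, a difference of 1.02 log2. Fah had 516, 428 and 627 CPM against 669, 797 and 863, and Hgd had 505, 526 and 639 CPM against 718, 937 and 993. All 3 enzymes of the lower tyrosine pathway were thus higher together in the misaligned livers.

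Tat, the first enzyme of that pathway, did not separate in the same way. It had 350, 1733 and 522 CPM in control and 1771, 1071 and 3000 CPM in misaligned males at 20 h. The control liver at 1733 CPM lay within the misaligned range. Sdsl had 3.25, 3.93 and 4.00 CPM against 4.75, 5.29 and 5.17, which is a small difference on low counts.

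Mean intron reads at 20 h were higher in misaligned than in control males for 8 of 9 members, a share not measured over all genes. Prodh had 194, 358 and 293 intron CPM in control males and 692, 607 and 748 in misaligned males. Mean intron CPM was 1187 against 2834 for Hpd and 919 against 1882 for Hgd. The exception was Sdsl, at 111 against 89.5 intron CPM. The rhythm change in males from intron reads called 0 of 9 members (2.06% of genes), with Prodh at 0.59 ± 0.23 log2 and an adjusted p of 0.325. The intron data were also negative for a rhythm within each group: 0 of 9 members were called in control females (4.47% of genes), misaligned females (2.5%), control males (2.84%) and misaligned males (0%).

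Some marker sums moved at the same clock time. In males at 20 h the 10 pericentral hepatocyte markers summed to 3971 to 10030 CPM in controls and 12380 to 14870 in misaligned mice. The 10 periportal markers summed to 12780 to 13840 and 13970 to 21280 CPM. The 7 stellate cell markers summed to 790 to 1245 CPM in controls and 497 to 680 in misaligned mice, and the 6 bile duct markers to 249 to 374 and 66.6 to 160. The 6 red blood cell markers summed to 189 to 202 CPM in controls and 303 to 512 in misaligned mice. None of these 5 pairs of ranges overlapped. The 8 hepatocyte markers summed to 75680 to 83960 CPM (median 77820) in controls and 74420 to 103500 (median 103100) in misaligned mice, which overlapped. The ranges of the Kupffer cell, endothelial cell, lymphocyte and pancreas marker sums overlapped as well. The part of the marker sums in the 20 h differences was not tested.

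At the other clock times in males, 1 of 9 members did not overlap at 8 h (15.7% of genes) and 0 of 9 did not at 0 h (9.76%), 4 h (6.05%), 12 h (12.1%) and 16 h (13.3%). In females 3 differences did not overlap. Misaligned females at 20 h had 540, 563 and 556 CPM of Tdo2 against 781, 782 and 692 in controls. Hpd at 20 h had 2195, 2281 and 2172 CPM against 2519, 2470 and 2699. At 20 h both were lower in misaligned females, where the male difference had the opposite sign, and 10.9% of all genes did not overlap in females at that time. In the same female livers the bile duct markers summed to 65.5 to 101 CPM in controls and 141 to 194 in misaligned mice, and the Kupffer cell markers to 686 to 738 and 390 to 595, with no overlap in either, and the part of this in the female differences was not tested. The third was Sdsl at 12 h, where 9.93% of all genes did not overlap, with 5.20, 5.10 and 7.45 CPM against 4.04, 4.68 and 4.98. At 0 h (9.68% of genes), 4 h (12.9%), 8 h (7.57%) and 16 h (9.6%) 0 of 9 members were without overlap in females.

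Because misaligned livers could run at another internal time than the stated one, each liver was also placed on a molecular time scale. That time was read from 14 core clock genes, none of them a member, by matching their levels to the control curves of the same sex. These genes were kept because they were called rhythmic by stated time in the control livers of both sexes. Control livers lay within 2.6 h of their stated time in females and within 2.3 h in males. Given that choice of genes, this closeness is in part built in. Misaligned females had a median offset of 2.17 h. In misaligned males 15 of 18 livers lay more than 4 h from their stated time, and the offsets were scattered, with a concentration of 0.516 on a scale where 1 means identical offsets.

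On the molecular time scale Prodh was the member with the clearest rhythm. In misaligned males it was the 1 of 9 called (11.5% of genes), where it had a fitted amplitude of 0.76 ± 0.15 log2 and peaked at 12.9 ± 0.7 h (edgeR adjusted p = 9.89e-05). It was called in each fit that left out 1 library (72 of 72, adjusted p up to 7.47e-04), in each that left out 1 replicate number (3 of 3) and under each of the 10 other alternatives (adjusted p up to 5.89e-04).

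The single livers show the pattern. At a stated time of 0 h the misaligned males with 267 and 246 CPM of Prodh had molecular times of 13.0 and 12.7 h, and the liver with 92.3 CPM had one of 22.6 h. At 4 h the liver with 300 CPM read 14.9 h, that with 180 CPM read 17.6 h, and that with 100 CPM read 5.08 h. At 8 h the 3 livers read 2.13 to 3.49 h and had 83.3 to 132 CPM. The high livers of these 3 clock times thus read later than the low ones at 4 and 8 h.

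At 12 h the liver with 198 CPM read 13.9 h, and those with 161 and 158 CPM read 6.17 and 7.02 h. At 16 h the livers with 123 and 83.1 CPM read 6.03 and 5.99 h, and that with 250 CPM read 7.32 h. At 20 h the livers with 260 and 283 CPM read 15.7 and 13.8 h, and that with 223 CPM read 8.02 h. Over all 18 livers, the 7 between 12.7 and 17.6 h had 180 to 300 CPM, and the 10 between 2.13 and 8.02 h had 83.1 to 250 CPM. The livers at 7.32 and 8.02 h were thus as high as some of those near the fitted peak. No misaligned male liver read between 8.02 and 12.7 h, and only the liver at 22.6 h read later than 17.6 h. The fitted cosine and its peak thus rest mainly on the contrast between these ranges. The SEs of the fits by molecular time take that time as known without error.

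In misaligned females Prodh was also the 1 of 9 called (10.7% of genes), here at 0.43 ± 0.12 log2 and peaking at 13.1 ± 1.2 h (edgeR adjusted p = 0.0292). That call was lost without the filter (0.0617) and without the libraries of any 1 replicate number (0.0913, 0.102 and 0.420 without numbers 1, 2 and 3). It was also lost without any of 6 single misaligned female libraries, with adjusted p up to 0.0765: those at 0 h (replicates 1 and 3), 8 h (replicate 3), 12 h (replicates 2 and 3) and 20 h (replicate 1). In control females Tdo2 was the 1 of 9 called (13.7% of genes), at 0.33 ± 0.09 log2 and peaking at 12.5 ± 1.1 h (0.0271), and it was lost without any of 5 control female libraries: those at 0 h (replicates 1 and 2), 4 h (replicate 3), 8 h (replicate 3) and 12 h (replicate 2), with adjusted p up to 0.104. It was lost as well without any 1 replicate number (0.0952, 0.251 and 0.0667). In control males 0 of 9 were called (12.4% of genes).

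The fitted molecular peak of Prodh was at 11.8 h in control females, 12.1 h in control males, 13.1 h in misaligned females and 12.9 h in misaligned males, although only the 2 misaligned groups passed the test. The amplitudes of 0.33 ± 0.13 log2 in control and 0.76 ± 0.15 in misaligned males were not compared by a test. Fah (amplitude 0.21 ± 0.07, adjusted p = 0.0539), Sdsl (0.42 ± 0.14, 0.0583) and Hpd (0.45 ± 0.14, 0.0588) lay just outside the threshold in misaligned males. Dbp, a clock output gene given for scale, is 1 of the 14 genes from which the time was read, so its rhythm on that scale is built in. It reached 2.87 log2 and peaked at 7.75 h on the same scale in misaligned males.

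**Figure D4:**
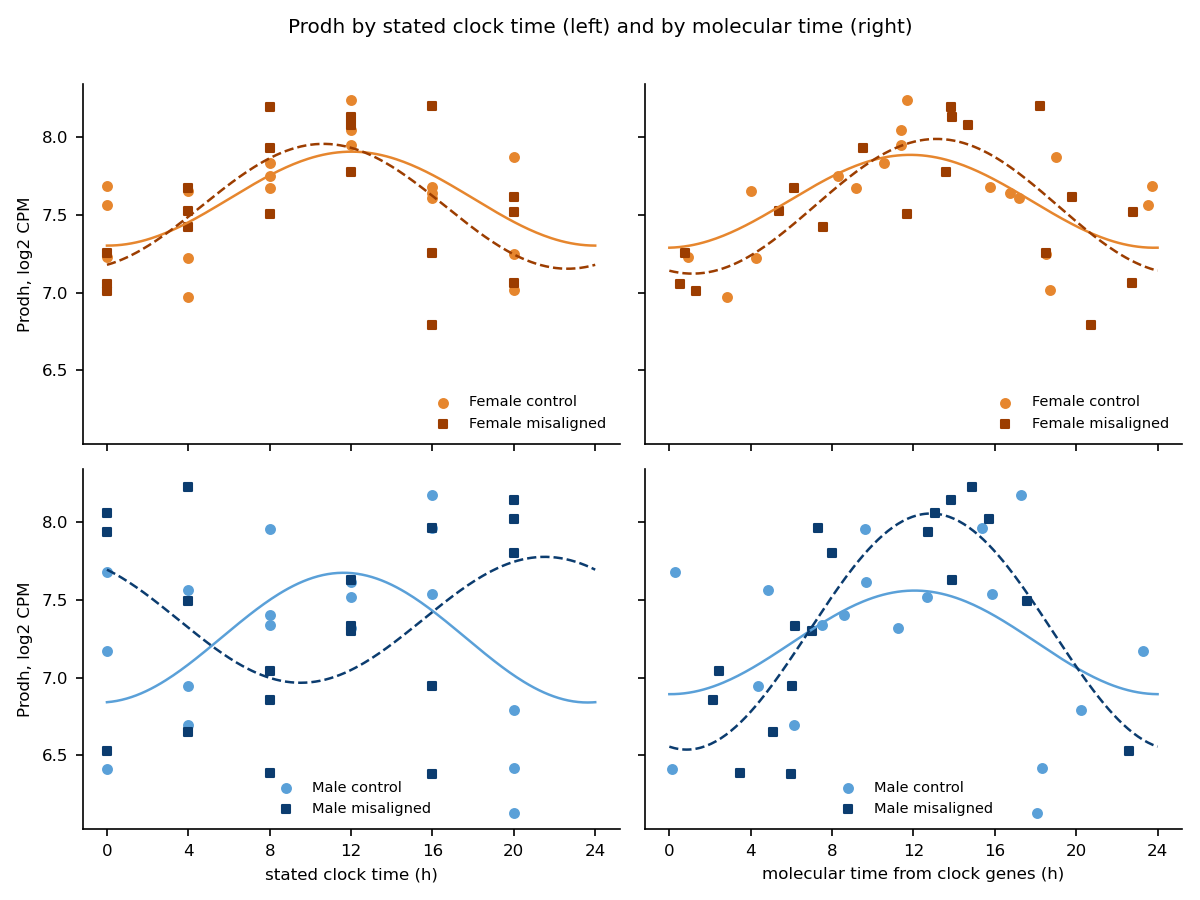
Prodh in log2 CPM (vertical axis) of single livers against the stated clock time (left) and the molecular time read from clock genes (right), both in h, for females (top) and males (bottom), with the fitted 24 h cosine curves of controls (circles, solid) and misaligned mice (squares, dashed). The male curves peak at 11.6 and 21.5 h by stated time and at 12.1 and 12.9 h by molecular time. Of the male curves, only that of misaligned mice by molecular time was called rhythmic.

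The members also varied together from liver to liver. After subtracting the mean of each group of 3, log2 levels correlated at r = 0.94 between Hpd and Fah, 0.84 between Hgd and Fah, 0.83 between Hpd and Hgd, and 0.80 between Fah and Prodh, over 72 libraries. Of the 36 pairs of members 35 had a positive r, with a median of 0.54. Tat, the first enzyme of the tyrosine pathway, was closest to Sds (0.75) and further from Hpd (0.53) and Fah (0.44). Sdsl stood apart, at r of 0.03 with Hpd and -0.03 with Tdo2. These are descriptions over libraries that share RNA quality, depth and tissue sampling. Pairs of genes outside the members were not measured in this way, so the values are not shown to be particular to these enzymes.

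**Figure D5:**
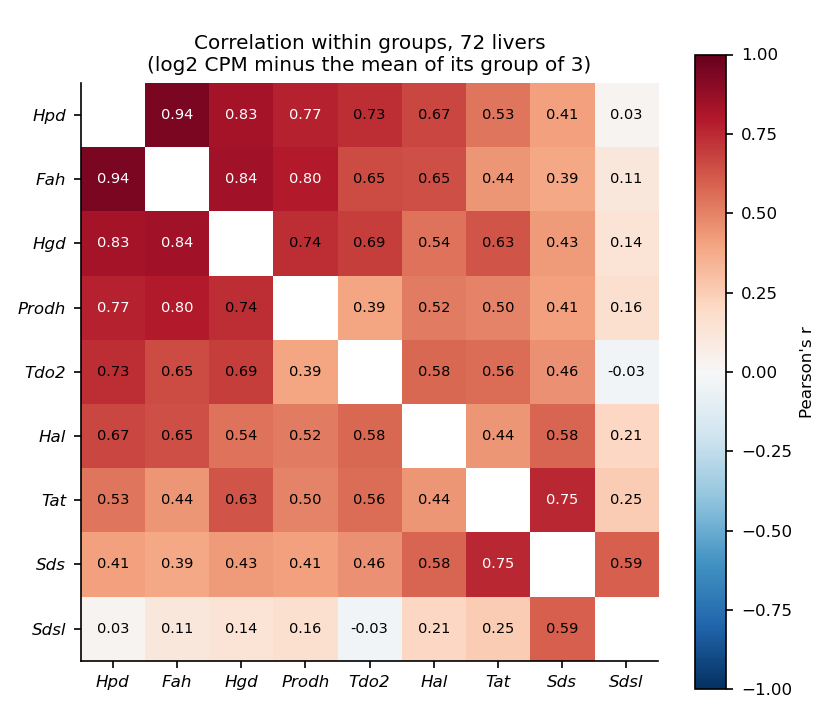
Pearson's r between members (colour and printed value) of log2 CPM after subtraction of the mean of each group of 3, over 72 livers. Hpd, Fah, Hgd and Prodh form a block of r between 0.74 and 0.94, and Sdsl has low values with all members but Sds.

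Across the means of the 24 groups, which differ in sex, treatment and clock time, the pairing was different. Hpd and Hal had r = 0.90 over group means and 0.67 within groups. Tdo2 and Hal had r = -0.55 over group means and 0.58 within groups. The 2 genes thus ran in opposite directions between the sexes and in the same direction among livers of 1 group.

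The genes outside the members with the most similar group means, among 10873 candidates and over the 24 groups, were named for each member. Those for Hpd were Pipox (r = 0.98), which oxidises pipecolate and sarcosine in peroxisomes, Lcat (0.97) and Bphl (0.97). For Fah they were Pecr (0.97), Slc27a5 (0.96), the bile acid-CoA ligase, and Dcxr (0.95). For Prodh they were the mitochondrial complex I gene Ndufb10 (0.95), the superoxide dismutase gene Sod1 (0.95) and the prohibitin gene Phb2 (0.93).

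For Hal they were Nlrp6 (0.95), the heparin cofactor gene Serpind1 (0.95) and the plasminogen gene Plg (0.94). For Tdo2 they were Cyp4v3 (0.93), the fatty acid oxidation gene Acadm (0.92) and Them7 (0.92). For Sds they were Pck1 (0.84), the entry enzyme of gluconeogenesis, the transcription factor gene Klf15 (0.78) and Oaf (0.77). For Tat they were the mitochondrial carrier genes Slc25a23 (0.82) and Slc25a25 (0.82) and Nprl2 (0.80).

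For Hgd they were Gstk1 (0.82), C8g (0.82) and Cyp27a1 (0.81), and for Sdsl they were Uqcc2 (0.69), Uqcrq (0.68) and Ndufa2 (0.68). The highest r was lowest for Sdsl, the member with the fewest reads.

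Other enzymes of the same pathways were read for comparison. For the male minus female difference in controls, 32.9% of all genes were called, 17% higher and 16% lower. Of 4 further histidine genes 3 were called, 1 higher and 2 lower, including Amdhd1 (-0.56 ± 0.09 log2, edgeR adjusted p = 5.57e-07) and Uroc1 (-0.35 ± 0.07, 1.03e-04), which act after HAL. So 3 consecutive enzymes of histidine breakdown were lower in males.

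Of 10 further tryptophan and kynurenine genes, 6 were called in this comparison, 3 higher and 3 lower, led by Kyat3 (-0.77 ± 0.10, 4.14e-09) and Afmid (-0.78 ± 0.14, 1.44e-05). Afmid, the formamidase that follows TDO2, thus differed in the opposite direction to Tdo2. Of 10 proline, ornithine and glutamate genes 6 were called, 2 higher and 4 lower, with Gpt2 at 0.60 ± 0.07 (1.59e-09) and Prodh2 at -0.52 ± 0.10 (4.60e-05). Of 16 serine, glycine and threonine genes 8 were called, 4 each way, with Agxt2 at 0.56 ± 0.06 (1.98e-11) and Shmt1 at -0.49 ± 0.09 (8.97e-06). Of 20 lysine and branched-chain genes 4 were called, 2 each way, with Bcat2 at -0.53 ± 0.07 (1.17e-08) and Aldh7a1 at 0.41 ± 0.07 (6.47e-06). The last count lies below the share of all genes.

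Rhythms in controls were called for some of these neighbours. In the serine and glycine list, 3 of 16 genes were called in control females, against 12% of all genes, and 2 in control males, against 10.8%. The male count is close to the background. Gldc, of the glycine cleavage system, had an amplitude of 0.96 ± 0.13 log2 with a peak at 22.4 h in females (edgeR adjusted p = 1.09e-06) and 0.71 ± 0.13 with a peak at 20.6 h in males (5.71e-04). The kynureninase gene Kynu, of the tryptophan list, had amplitudes of 0.45 and 0.39 with peaks at 23.1 and 22.3 h. The counts of control rhythms in that list and the other pathway lists are not given here. The Kynu peaks lay on the other side of the day from the fitted peak of Tdo2 at 12.6 h in control females. That Tdo2 rhythm did not survive each change of method, and the peaks of the genes were not compared by a test.

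In the rhythm change in males, 3 of 16 serine and glycine genes, 2 of 10 tryptophan genes and 1 each of 10 proline and 20 lysine and branched-chain genes were called, against 9.23% of all genes. The proline count is near that share and the lysine and branched-chain count is below it. Gldc (0.95 ± 0.18 log2, adjusted p = 6.81e-04), Amt (0.41 ± 0.10, 0.0130), Afmid (0.89 ± 0.20, 0.00642) and Kynu (0.47 ± 0.11, 0.0137) were among them. Histidine genes had 0 of 4 called. For the mean effect of misalignment, none of the genes of these lists was called in either sex.

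The hormone-related lists were read in the same way, as Tat, Tdo2 and Sds are textbook targets of glucocorticoids or glucagon. For the mean effect of misalignment 0 of 15 glucocorticoid response genes and 0 of 12 glucagon and fasting genes were called in either sex. Their median change in females was 0.17 and 0.09 log2, with 12 of 15 and 12 of 12 estimates above 0. In males it was 0.02 and 0.05 log2, with 9 of 15 and 9 of 12 above 0. For the rhythm change in males 3 of 15 and 2 of 12 were called, against 9.23% of all genes. The glucocorticoid list includes Per1, which is also a core clock gene, and the called genes are not named here.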

How the data were processed

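Reads were aligned with STAR 2.6.0c to GRCm38, per the submitters' processing notes. The deposited counts are labelled as a PORT result, and the settings behind it are not given in the sources used here. The library totals lie close together, and whether they reflect sequencing depth was not tested. The deposited tables hold whole-number read counts per gene and per intron on the sense strand, in a version named MIN, used throughout, and one named MAX, used as an alternative. From these counts edgeR 4.0.16 (R 4.3.3) computed TMM factors, filterByExpr over the 24 groups and robust quasi-likelihood fits on all 72 libraries: 1 mean per group, or a mean, cosine and sine of 24 h per sex and treatment. Tests were 2-sided, adjusted over all genes tested by Benjamini-Hochberg, and called under 0.05. For log2 CPM the prior count was 2. Introns were summed per gene over a non-overlapping set (157594 of 200985). Alternatives used limma 3.58.1 and DESeq2 1.42.0. The fits for the mean effect in males and the rhythm in control males were tried on simulated counts. Those counts had the same dispersion for every gene, and the other tests were not simulated. Motifs and figures used Python and matplotlib.

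The members and gene lists were chosen with earlier results of these data known. Named genes were the 9 members, the 3 genes most like each by r of group means (mean of at least 2 CPM, predicted genes left out), up to 2 called genes with the smallest p per pathway list and test, and Dbp as a reference for the clock. The genes of 1 pathway list are not reported here.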

Additional observations from a re-analysis of the deposited data

How the results depend on the processing

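No sex difference of a member that was called under any setting changed sign under the alternatives tried. Hal, Hpd and Tdo2 kept their sex difference in both treatments under 10 of 10 other settings and in 72 of 72 fits without 1 library, as did the molecular rhythm of Prodh in misaligned males. Counts of members called that moved by more than 1.5 times are given next, and the cause was not tested. For the effect unequal over clock times in males, 2 members became 0 with the compared libraries alone, 1 without the filter, 1 with total counts, 0 without 20 h (chosen after seeing the data) and 0 to 3 with a library or replicate number left out. For the rhythm in control females, 1 became 2 with the compared libraries alone, 0 by equal means over clock times, 0 without the filter and 0 to 1 with one left out. For the rhythm in misaligned females, 0 became 1 with the compared libraries alone. For that in control males, 0 became 1 by equal means over clock times and 0 to 2 with one left out. For the rhythm change in males, 1 became 0 with the compared libraries alone, 2 by equal means, 0 without the filter, 0 without 20 h and 0 to 3 with one left out. By molecular time in misaligned males, 1 became 4 with DESeq2, 2 with the compared libraries alone, 2 with limma-voom, 3 at a mean of at least 5 CPM and 1 to 3 with one left out. By molecular time in misaligned females, 1 became 0 without the filter and 0 to 1 with one left out, in control females 0 to 1 and in control males 0 to 3 with one left out. The intron sex difference gave 1 to 3.

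The replicate number did not pair the libraries: libraries of the same number in different groups correlated at a mean r of -0.0039 and those of different numbers at 0.0020, and 24 of 72 were closest to their own number. With the replicate block, the effect unequal over clock times in males called 1 member in place of 2, and the molecular rhythm in misaligned males 3 in place of 1.

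Counts over all genes moved too. The effect unequal over clock times in males called 1395 genes, 387 with the compared libraries alone, 830 without the filter and 435 without 20 h, and in females 5, with 2 to 23 under the other settings. The rhythm change in males called 1391 genes, 750 with the compared libraries alone and 832 without 20 h, that in females 29 (5 to 85 elsewhere), and its sex difference 260 (130 to 391). Rhythms called 1803 genes in control females (1031 by equal means), 1158 in misaligned females (548 by equal means, 718 without 20 h), 1625 in control males (847 with the compared libraries alone, 1003 without 20 h) and 1 in misaligned males (0 to 22). By molecular time 1867 genes in control males became 855 with the compared libraries alone, and 1736 in misaligned males became 1077 without 20 h. For the mean effect of misalignment DESeq2 called 4 genes in females and 3 in males. With 3 libraries a group, the depth of Sdsl and the spread of Tat limit what could be resolved for them.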
